A study of Mus musculus with 10 samples.

Results

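Genes of selenium biology and peroxide removal were followed across 5 populations of mouse intestinal epithelium. They are the selenoprotein genes Selenom, Selenok, Selenos, Selenow and Selenop, the glutathione peroxidase genes Gpx1, Gpx2, Gpx3 and Gpx4, and the thioredoxin reductase gene Txnrd1. All 10 were measured, among 12393 genes represented by a probe set with a single gene symbol. The family was taken by name, and where a gene had several probe sets, the one selected on the mean of its 10 arrays was the brightest. Selenom was chosen by its high level in secretory progenitors, so its differences between those arrays and Ent-Pro or ISC, and between Ent-Pro and other groups, are given as a description, with no test.

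Total RNA was hybridised to 10 Affymetrix arrays, 2 for each group, and all mice were C57BL/6. Intestinal stem cells (ISC) were Lgr5+ cells of Lgr5-eGFP-Cre mice, sorted by flow cytometry on their green fluorescence. Secretory progenitors (Sec-Pro) were crypt epithelium from mice with Rbpj, the DNA-binding partner of Notch, deleted (Rbpj Sec-Pro), or from mice given dibenzazepine, a Notch inhibitor (DBZ Sec-Pro). Enterocyte progenitors (Ent-Pro) were crypt epithelium, and enterocytes (ENT) villus epithelium, of Atoh1-/- mice, in which the labels state that secretory cells are missing. The Cre line behind each deletion, the dose and duration of dibenzazepine and the age of the mice are not given in the sources used here. The stem cells were the only sorted population, so sorting and group cannot be told apart in any comparison with ISC. Whether the 2 arrays of a group stand for different animals is not stated, so the p-values measure only how far these samples spread, which may be technical variation.

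Selenoproteins carry selenocysteine, an amino acid inserted at a UGA codon that would otherwise end translation, with the help of a stem-loop in the messenger RNA. Most of those with a known function are oxidoreductases: glutathione peroxidases reduce peroxides with glutathione, thioredoxin reductases keep thioredoxin reduced, and several smaller selenoproteins sit in the endoplasmic reticulum (ER), where secreted proteins fold. In the gut, Gpx2 is known as the glutathione peroxidase of the epithelium itself, and selenium status sets the level of several of these proteins.

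The labels were checked against marker genes. Atoh1, the transcription factor that commits cells to the secretory lineage, read 10.40 to 11.85 (log2) on the 4 Sec-Pro arrays and 4.97 to 5.78 on the 4 Atoh1-/- arrays. Rbpj read 6.74 and 6.62 in Rbpj Sec-Pro, against 8.26 and 8.31 in DBZ Sec-Pro, 8.07 to 8.22 in ISC and Ent-Pro, and 7.21 or less in ENT, where the labels give no deletion of it. Lgr5 read 11.36 and 11.06 in ISC against 6.31 to 8.80 elsewhere. Whether these probe sets lie inside the deleted parts is not given in the sources used here. Goblet markers (6 measured) averaged 13.11 to 13.56 in Sec-Pro and 6.13 to 6.43 on the Atoh1-/- arrays, and the defining goblet gene Muc2 was not measured here. Enterocyte markers (7 measured) averaged 13.21 to 14.27 outside ISC, where they averaged 11.32 and 11.38, so the Sec-Pro arrays held enterocyte transcripts at levels like those of Ent-Pro. The tuft cell markers (6 measured) averaged 8.89 and 8.47 in ENT, above 6.00 and 5.57 in Ent-Pro, both from Atoh1-/- mice. Leukocyte markers (11 measured) ranged from 5.93 and 6.24 in ISC to 9.15 on the first Rbpj Sec-Pro array, which had the lowest tuft mean of the Sec-Pro arrays (6.48 against 8.36 to 8.64). Stromal markers (10 measured) stayed between 5.30 and 6.08 on all arrays. In bulk RNA, fewer cells of a type and less RNA per cell cannot be told apart.

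The sequences just upstream of 4 members show the starting points of the genes whose levels differed most or whose upstream DNA held a motif of the oxidative stress response. Selenom and Selenop spanned the widest ranges of the 10, and Selenok and Txnrd1 were the members with an antioxidant response element core, TGACNNNGC, the motif that Nrf2 binds. Each line gives the 250 bases before the annotated start in RefSeq's promoter table for GRCm38.p6, on the plus strand. They cover chr11:3514434-3514683 for Selenom, chr14:29968130-29968379 for Selenok, chr15:3270517-3270766 for the first of 3 Selenop starts and chr10:82858956-82859205 for the second of 3 Txnrd1 starts. Capitals mark an E-box (CAGNTG, read on the reverse strand) 78 to 73 bases and a TATA box (TATAAA) 144 to 139 bases before the Selenom start, the antioxidant element 44 to 36 bases before the Selenok start, E-boxes 226 to 221 and 127 to 122 bases before the Selenop start, and the antioxidant element, read on the reverse strand, 92 to 84 bases before the Txnrd1 start.
Selenom: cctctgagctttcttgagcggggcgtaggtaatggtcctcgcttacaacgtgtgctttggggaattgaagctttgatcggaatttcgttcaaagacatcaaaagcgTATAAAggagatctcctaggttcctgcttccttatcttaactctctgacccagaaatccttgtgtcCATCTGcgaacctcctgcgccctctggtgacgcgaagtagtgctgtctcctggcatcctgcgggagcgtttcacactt
Selenok: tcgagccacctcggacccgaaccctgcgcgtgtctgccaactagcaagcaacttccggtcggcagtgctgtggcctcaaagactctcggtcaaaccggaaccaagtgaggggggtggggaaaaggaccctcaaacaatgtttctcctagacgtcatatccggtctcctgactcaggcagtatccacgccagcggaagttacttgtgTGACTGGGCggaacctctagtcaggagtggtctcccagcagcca
Selenop: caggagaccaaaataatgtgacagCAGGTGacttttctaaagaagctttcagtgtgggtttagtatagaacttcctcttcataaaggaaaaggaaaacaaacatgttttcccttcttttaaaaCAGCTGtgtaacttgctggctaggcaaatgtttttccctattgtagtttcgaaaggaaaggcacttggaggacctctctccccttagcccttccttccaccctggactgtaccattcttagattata
Txnrd1: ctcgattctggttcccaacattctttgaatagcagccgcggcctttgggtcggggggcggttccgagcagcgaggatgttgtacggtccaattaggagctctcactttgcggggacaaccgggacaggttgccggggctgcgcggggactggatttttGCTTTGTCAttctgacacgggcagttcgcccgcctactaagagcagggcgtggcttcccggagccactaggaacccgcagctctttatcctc
All 10 members matched the table, with 17 annotated starts. The antioxidant element core, searched on both strands, was present at 2 of these 17 and at 10.2% of 32851 promoters of the same length. E-boxes are the class of motif bound by basic helix-loop-helix factors such as Atoh1, and only the form CAGNTG was searched. That form was present at 9 of 17, which belong to 4 of the 10 genes (Selenom, Selenop, Gpx2 and Gpx4), and at 44.8% of all promoters. E-boxes of other forms were not counted at any gene. Windows of neighbouring starts of Selenop and of Gpx4 overlap, so some of these sites are counted more than once. TATA boxes were present at 2 of 17 against 12.4%. The ER stress response element (0.113% of promoters) and the unfolded protein response element TGACGTGG (0.563%) had no match at the 17 starts. A match describes letters in this window and is not evidence of binding.

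Selenom (chr11:3514684-3517351) encodes a thioredoxin-like protein of the ER. Its probe set read 9.16 and 8.98 (ISC), 11.30 and 11.53 (Rbpj Sec-Pro), 12.97 and 13.00 (DBZ Sec-Pro), 5.30 and 5.30 (Ent-Pro) and 9.07 and 8.61 (ENT). The Sec-Pro arrays were the highest and the Ent-Pro arrays the lowest, and only ISC and ENT overlapped. The mean of both Sec-Pro groups lay 6.90 above Ent-Pro on the log2 scale, a 119-fold difference, made up of 6.12 for Rbpj Sec-Pro and 7.68 for DBZ Sec-Pro. Against ISC the Sec-Pro mean was 3.13 higher, or 8.77-fold.

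Among the other groups, Selenom was far lower in enterocyte progenitors than in stem cells or on the villus. Ent-Pro lay 13.6-fold below ISC (-3.77, log2) and ENT 11.6-fold above Ent-Pro (3.54). Both differences rest on the Ent-Pro arrays, against which Selenom had been chosen, so they too are given with no test. ENT and ISC differed by -0.23 ± 0.17 (SE, 2 arrays a group; 95% interval -0.61 to 0.15; limma, adjusted p = 0.29). The arms of the secretory group differed as well: DBZ Sec-Pro was 2.96-fold above Rbpj Sec-Pro (1.57 ± 0.17; adjusted p = 0.0018), on arrays whose shared high level, not their difference, was the ground for choosing it. Atoh1 moved the same way between these arms, reading 11.80 and 11.85 in DBZ Sec-Pro against 10.40 and 10.78 in Rbpj Sec-Pro. Of the secretory markers, 3 of 7 for enteroendocrine cells, 2 of 6 for goblet cells and 1 of 4 for Paneth cells passed as higher in DBZ Sec-Pro, and 1 goblet marker as lower. The part of these cell types in the difference was not tested.

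Tuft cell and leukocyte markers moved with part of this profile. From Ent-Pro to ENT, 6 of 6 tuft markers and 5 of 11 leukocyte markers passed as higher, and the leukocyte mean rose from 6.54 and 6.53 to 7.79 and 8.19, while the goblet mean went from 6.19 and 6.13 to 6.22 and 6.43. Their part in the Selenom result was not tested. Between the Rbpj Sec-Pro arrays Selenom differed by little (11.30 and 11.53), where the tuft mean was 6.48 and 8.64 and the leukocyte mean 9.15 and 7.46. Of the genes outside the family, Hepacam2, an immunoglobulin-family adhesion molecule, had the array profile most like that of Selenom. The root mean square difference of their centred log2 values over the 10 arrays was 0.38, against a root mean square of 2.61 for Selenom itself. Hepacam2 read 8.84 and 9.00 (ISC), 11.33 and 11.59 (Rbpj Sec-Pro), 12.26 and 12.22 (DBZ Sec-Pro), 5.84 and 5.24 (Ent-Pro) and 9.06 and 8.76 (ENT). Rnase1, a secreted ribonuclease (0.80), and Spdef, a transcription factor of goblet and Paneth cell maturation (0.95), came next.

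**Figure D1:**
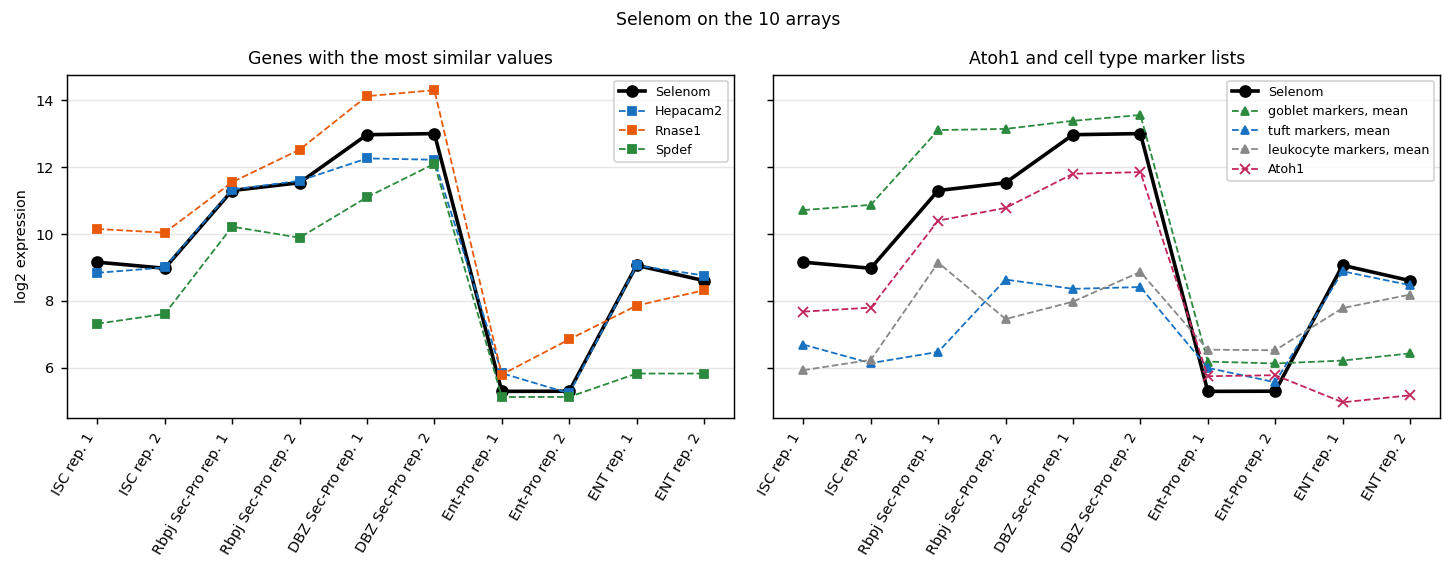
Selenom on each of the 10 arrays (log2 expression on the vertical axis, arrays on the horizontal axis) beside the genes with the most similar values (left) and beside Atoh1 and the means of 3 marker lists (right). Selenom peaks at 12.97 and 13.00 in DBZ Sec-Pro, drops to 5.30 in Ent-Pro and lies at 9.07 and 8.61 in ENT. Hepacam2 and the tuft mean also rise from Ent-Pro to ENT, and Atoh1 does not. In ISC, Selenom is at a similar level (9.16 and 8.98), where the tuft mean is 6.69 and 6.14.

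Selenok (chr14:29968380-29975074), an ER membrane protein that works with the palmitoyltransferase Zdhhc6, was also highest in secretory progenitors. It read 9.21 and 8.81 (ISC), 10.57 and 10.39 (Rbpj Sec-Pro), 10.58 and 10.69 (DBZ Sec-Pro), 9.54 and 9.63 (Ent-Pro) and 10.19 and 9.98 (ENT). The groups ranked ISC, Ent-Pro, ENT and Sec-Pro, with no overlap between these 4, and the arms of Sec-Pro differed by 0.15 ± 0.16 (adjusted p = 0.54). Sec-Pro exceeded Ent-Pro by 0.97 ± 0.14, or 1.96-fold (adjusted p = 0.002), and ISC by 1.55 ± 0.14, or 2.92-fold (adjusted p = 5.4e-05). ENT exceeded ISC by 1.08 ± 0.16 (adjusted p = 0.00045). The smaller steps from ISC to Ent-Pro (0.57 ± 0.16; adjusted p = 0.028) and from Ent-Pro to ENT (0.50 ± 0.16; adjusted p = 0.034) rested on single arrays. The first missed the threshold without the second ISC array (0.38; 0.18), the first Ent-Pro array (0.62; 0.091) or the second (0.52; 0.15), and the other missed it without any 1 of its 4 arrays (adjusted p from 0.052 to 0.18).

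Selenos (chr7:66079649-66089405), also known as VIMP, brings the segregase Vcp to Derlin proteins for the removal of misfolded proteins from the ER. It read 11.11 and 11.15 (ISC), 11.72 and 11.80 (Rbpj Sec-Pro), 12.06 and 12.58 (DBZ Sec-Pro), 11.15 and 11.56 (Ent-Pro) and 11.46 and 11.45 (ENT). The 4 Sec-Pro arrays were above all 6 others, which overlapped among themselves except for ENT above ISC. Sec-Pro exceeded ISC by 0.90 ± 0.17 (adjusted p = 0.0021) and Ent-Pro by 0.69 ± 0.17, or 1.61-fold (adjusted p = 0.019). The latter missed the threshold without the first Ent-Pro array (0.48; adjusted p = 0.18), with Rbpj Sec-Pro alone (0.41; 0.14), with the compared groups fitted alone (0.057) and when the 4 Sec-Pro arrays formed 1 group (0.088). Ent-Pro and ISC (0.22; adjusted p = 0.49), ENT and Ent-Pro (0.11; 0.72), ENT and ISC (0.32; 0.2) and DBZ and Rbpj Sec-Pro (0.56; 0.077, or 0.82 and 0.034 without the first DBZ array) did not pass. The dimmest Selenos probe set gave larger differences from ISC, of 0.84 in Ent-Pro (adjusted p = 0.016) and 1.21 in ENT (adjusted p = 0.00097). The other dimmer set did not, reading 10.01 and 9.79 (ISC), 9.62 and 10.27 (Ent-Pro) and 10.28 and 10.11 (ENT). On that set the first Rbpj Sec-Pro array (10.07) lay below both ENT arrays and the second Ent-Pro array, so Sec-Pro was not separate from them.

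Selenow (chr7:15917208-15922371, minus strand), a small cytosolic selenoprotein, ran the other way: on its brightest probe set it was highest in stem cells. Its probe set read 12.38 and 12.55 (ISC), 10.39 and 10.43 (Rbpj Sec-Pro), 10.29 and 10.79 (DBZ Sec-Pro), 10.66 and 10.17 (Ent-Pro) and 10.86 and 11.00 (ENT). Both ISC arrays were above every other array, and the Sec-Pro and Ent-Pro arrays overlapped. Sec-Pro was 3.97-fold below ISC (-1.99 ± 0.18; adjusted p = 5.4e-05), Ent-Pro 4.14-fold below (-2.05 ± 0.20; 0.00033) and ENT 2.90-fold below (-1.53 ± 0.20; 0.00024). Sec-Pro and Ent-Pro differed by 0.06 ± 0.18 (95% interval -0.34 to 0.46). ENT was 0.52 ± 0.20 above Ent-Pro (adjusted p = 0.077, or 0.036 at 0.76 without the first Ent-Pro array). The second Selenow probe set showed a smaller fall from ISC, which passed in Sec-Pro and not in Ent-Pro. It did not fall in ENT, whose arrays were the highest on that set. It read 6.94 and 6.68 (ISC), 6.08 and 5.99 (Rbpj Sec-Pro), 6.34 and 6.25 (DBZ Sec-Pro), 6.59 and 6.53 (Ent-Pro) and 7.03 and 7.05 (ENT). With it, Sec-Pro was -0.64 from ISC (adjusted p = 0.0015), Ent-Pro -0.25 (0.22) and ENT 0.23 above ISC (0.18). The Selenow probe set in use is of a type that the array's maker marks as open to cross-hybridisation. Of the same type are the dimmer Gpx4 set, the dimmest Txnrd1 set and the Selenos set between the brightest and the dimmest.

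Selenop (chr15:3270767-3280510) encodes the secreted carrier of selenium in plasma and was lowest in stem cells and highest on the villus. It read 10.44 and 10.03 (ISC), 13.80 and 13.69 (Rbpj Sec-Pro), 13.84 and 13.53 (DBZ Sec-Pro), 13.44 and 13.05 (Ent-Pro) and 14.29 and 14.44 (ENT). Both ISC arrays were lowest and both ENT arrays highest, and the arms of Sec-Pro overlapped. Sec-Pro was 11.1-fold above ISC (3.48 ± 0.17; adjusted p = 7.1e-06), Ent-Pro 8.05-fold above (3.01 ± 0.19; 4.9e-05) and ENT 17.4-fold above (4.12 ± 0.19; 2.1e-06). From crypt to villus it rose by 1.11 ± 0.19, or 2.17-fold (ENT against Ent-Pro; adjusted p = 0.0017). Sec-Pro lay 0.47 ± 0.17 above Ent-Pro with no overlap, and this passed after cyclic loess (0.60; adjusted p = 0.027) but not on the values as deposited (0.071). The enterocyte markers moved with Selenop: all 7 passed as higher in Sec-Pro, in Ent-Pro and in ENT than in ISC, and 5 of 7 in ENT than in Ent-Pro. Leukocyte markers moved in part, with 8 of 11 higher in Sec-Pro and in ENT than in ISC and 1 of 11 in Ent-Pro. Their part in the result was not tested. The genes most like Selenop were Spink1, a secreted trypsin inhibitor (root mean square difference 0.22, against 1.46 for Selenop itself), the lectin gene Clec2h (0.25) and Apoa1, the apolipoprotein of high-density lipoprotein (0.26).

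Gpx3 (chr11:54902854-54910387), the glutathione peroxidase of plasma, passed in no comparison. It read 6.67 and 7.32 (ISC), 7.88 and 7.02 (Rbpj Sec-Pro), 7.03 and 7.23 (DBZ Sec-Pro), 7.07 and 7.20 (Ent-Pro) and 7.11 and 7.16 (ENT). Its arrays overlapped in all 6 comparisons, and its differences ran from -0.32 (DBZ against Rbpj Sec-Pro; 95% interval -0.97 to 0.33) to 0.30 (Sec-Pro against ISC; -0.27 to 0.86). Mrgprf, Ncf4 and Itga2 had the most similar values, at differences of 0.10 to 0.12 against 0.29 for Gpx3 itself.

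**Figure D2:**
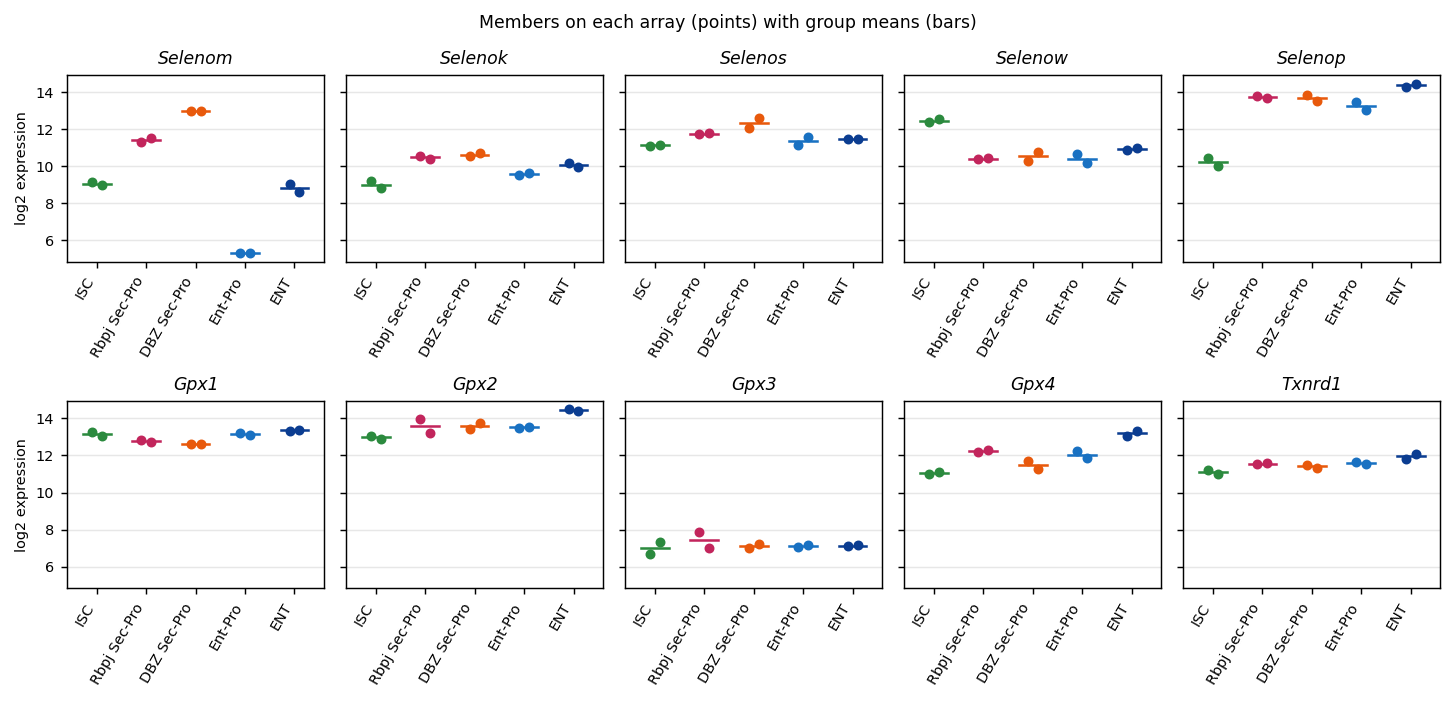
Log2 expression of the 10 members (vertical axis) in each group (horizontal axis), with 1 point for each array and a bar at the group mean of 2 arrays. Selenom spans from 5.30 to 13.00, Selenop steps up from 10.03 and 10.44 in ISC to 13.05 or more elsewhere, Selenow steps down from 12.38 and 12.55, and Gpx3 stays between 6.67 and 7.88.

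Gpx4 (chr10:80047166-80056439) encodes the peroxidase that reduces lipid hydroperoxides in membranes and so restrains ferroptosis, and it climbed from stem cells to the villus. It read 11.00 and 11.13 (ISC), 12.17 and 12.32 (Rbpj Sec-Pro), 11.68 and 11.29 (DBZ Sec-Pro), 12.22 and 11.89 (Ent-Pro) and 13.07 and 13.33 (ENT). ISC was lowest and ENT highest, without overlap, and Ent-Pro overlapped with Rbpj Sec-Pro. ENT was 4.39-fold above ISC (2.13 ± 0.18; adjusted p = 2e-05) and 2.22-fold above Ent-Pro (1.15 ± 0.18; 0.001). Ent-Pro was 0.99 ± 0.18 above ISC (0.0043) and Sec-Pro 0.80 ± 0.15 above ISC (0.0028). Sec-Pro and Ent-Pro differed by -0.18 ± 0.15 (adjusted p = 0.42). The arms of Sec-Pro differed in the direction opposite to Selenom: DBZ Sec-Pro was 1.70-fold below Rbpj Sec-Pro (-0.76 ± 0.18; adjusted p = 0.024). This call was lost without the first (-0.84; 0.054) or second (-0.69; 0.055) Rbpj array, without the second DBZ array (-0.57; 0.15) and with these groups fitted alone (0.11). In DBZ Sec-Pro alone, Gpx4 was 0.42 above ISC (adjusted p = 0.1), against 1.18 (0.00085) in Rbpj Sec-Pro. The dimmer Gpx4 probe set gave smaller differences from ISC, of 0.07 in Sec-Pro (adjusted p = 0.68) and 0.29 in Ent-Pro (0.22), and on it the DBZ Sec-Pro arrays (11.14 and 10.92) lay below those of ISC (11.41 and 11.53).

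Gpx1 (chr9:108339080-108340342), the widespread cytosolic glutathione peroxidase, was lowest in secretory progenitors. It read 13.25 and 13.07 (ISC), 12.85 and 12.70 (Rbpj Sec-Pro), 12.63 and 12.59 (DBZ Sec-Pro), 13.22 and 13.13 (Ent-Pro) and 13.34 and 13.36 (ENT). The 4 Sec-Pro arrays were below the other 6, and ISC and Ent-Pro overlapped. Sec-Pro was 1.39-fold below Ent-Pro (-0.48 ± 0.10; adjusted p = 0.013) and 1.38-fold below ISC (-0.47 ± 0.10; 0.0056). The first call was lost without the first (-0.43; 0.12) or the second (-0.52; 0.074) Ent-Pro array, and the other without the first ISC array (-0.38; 0.054). Its remaining differences were 0.19 or smaller in size and did not pass, except that ENT against Ent-Pro passed after cyclic loess (0.37; 0.034). Its most similar genes, Il31ra, Pcdh12 and Trip10, were at differences of 0.086 to 0.092, against 0.28 for Gpx1 itself.

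Gpx2 (chr12:76792335-76795554, minus strand), the epithelial glutathione peroxidase, was highest on the villus. It read 13.03 and 12.91 (ISC), 13.96 and 13.21 (Rbpj Sec-Pro), 13.44 and 13.73 (DBZ Sec-Pro), 13.47 and 13.56 (Ent-Pro) and 14.49 and 14.41 (ENT). ENT was above and ISC below all other arrays, and the Sec-Pro arrays and Ent-Pro overlapped (0.07 ± 0.19; adjusted p = 0.82). ENT was 2.79-fold above ISC (1.48 ± 0.22; adjusted p = 0.00049) and 1.91-fold above Ent-Pro (0.93 ± 0.22; 0.0091, or 0.054 at 0.89 without the first Ent-Pro array). Sec-Pro exceeded ISC by 0.61 ± 0.19 (0.028), which was lost without the first (0.67; 0.09) or second (0.56; 0.15) ISC array or the second DBZ array (0.54; 0.075), and after cyclic loess (0.054) or quantile normalization (0.057). Ent-Pro lay 0.54 ± 0.22 above ISC (0.11), and this passed without the first or the second Rbpj Sec-Pro array (0.016 in each case). Pigc, Ghitm and Itgav were nearest to it, at differences of 0.13 to 0.14 against 0.51 for Gpx2 itself.

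Txnrd1 (chr10:82833951-82897724), the cytosolic thioredoxin reductase, changed by less than 1 log2 unit on its brightest probe set. It read 11.23 and 11.01 (ISC), 11.51 and 11.58 (Rbpj Sec-Pro), 11.50 and 11.34 (DBZ Sec-Pro), 11.67 and 11.53 (Ent-Pro) and 11.81 and 12.09 (ENT). ISC was lowest and ENT highest, and Sec-Pro and Ent-Pro overlapped. ENT was 1.78-fold above ISC (0.83 ± 0.14; adjusted p = 0.0011). The steps to Sec-Pro (0.36 ± 0.12; 0.04) and to Ent-Pro (0.48 ± 0.14; 0.038) were lost without either ISC array or either Ent-Pro array, with values from 0.26 to 0.59 and adjusted p up to 0.26. The first was also lost without either Rbpj array or the first DBZ array. ENT lay 0.35 ± 0.14 above Ent-Pro (0.088). The dimmer probe sets of Txnrd1 disagreed with it. The next one read 7.34 and 8.89 (ISC), 7.17 and 6.54 (Rbpj Sec-Pro), 6.82 and 7.01 (DBZ Sec-Pro), 6.56 and 7.15 (Ent-Pro) and 9.39 and 9.71 (ENT). On the dimmest one ENT was 2.11 above Ent-Pro (adjusted p = 0.0023), and Sec-Pro (-0.99) and Ent-Pro (-0.85) were below ISC. Isca2, Exoc6 and Etfrf1 were most like the brightest probe set, at differences of 0.084 to 0.095 against 0.29 for Txnrd1 itself.

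**Figure D3:**
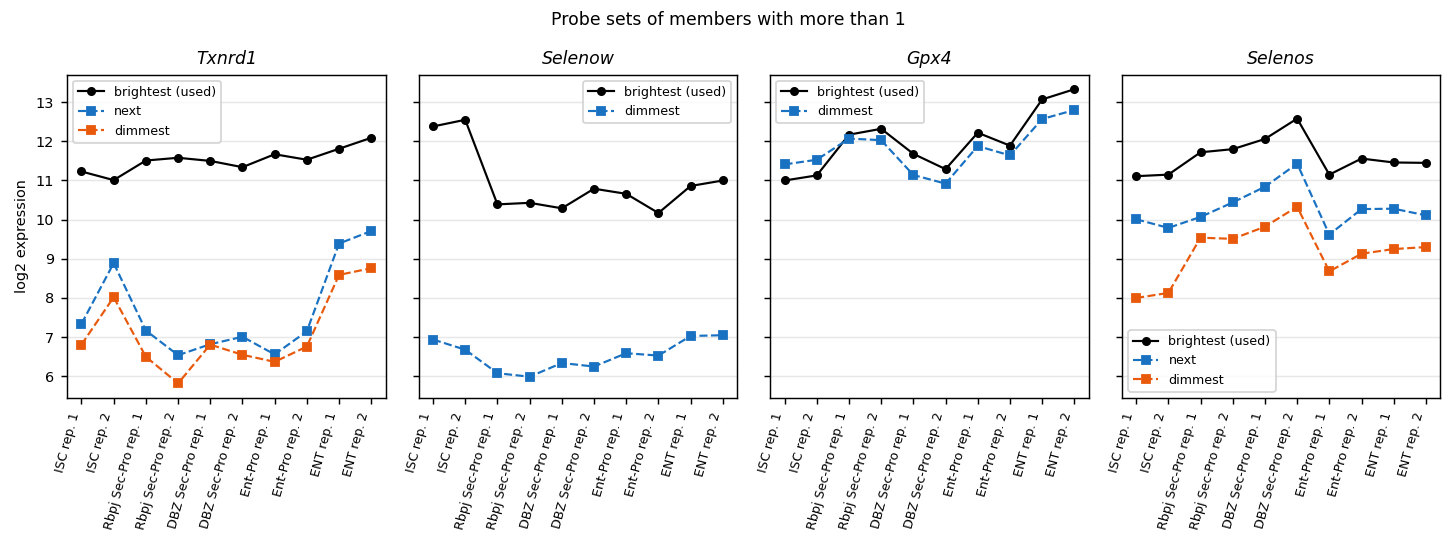
Log2 expression on each array (vertical axis, arrays on the horizontal axis) of every probe set of the 4 members with more than 1. On the dimmest Selenos set ISC (8.13 or less) lies farther below the other groups than on the set in use, Selenow falls from 12.38 and 12.55 in ISC to 10.17 at the lowest on the set in use but only from 6.94 and 6.68 to 5.99 on the dimmer one, and the dimmer Txnrd1 sets rise to 8.59 or more in ENT.

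Counted over the family, members passed most often in Sec-Pro against ISC. The 6 comparisons share groups, so their counts are not independent, and members are not replicates of one another. Between Sec-Pro and Ent-Pro, 2 of the 9 members other than Selenom rose and 1 fell (33.3%), where 24.0% of all genes passed, 9.27% higher and 14.7% lower, and without the first Ent-Pro array 1 member passed. Against ISC, Sec-Pro had 6 of these 9 higher and 2 lower (88.9%), where 45.2% of all genes passed, 18.0% higher and 27.2% lower. This fell to 5 members without the first ISC array and to 5 with DBZ Sec-Pro alone. Ent-Pro against ISC had 4 of these 9 higher and 1 lower (55.6%), where 25.5% of all genes passed, 12.1% higher and 13.5% lower, and 3 members passed without the second ISC array or either Ent-Pro array. ENT against Ent-Pro had 4 of these 9 higher and none lower (44.4%), where 38.7% of all genes passed, 18.5% higher and 20.2% lower, and 7 members passed after cyclic loess. DBZ against Rbpj Sec-Pro had 1 of 10 higher and 1 lower, where 16.4% of all genes passed, 9.34% higher and 7.08% lower, and 1 member passed without either Rbpj array or the second DBZ array. ENT against ISC had 5 of 10 higher and 1 lower, where 49.2% of all genes passed, 22.3% higher and 26.8% lower. In all but these comparisons of Sec-Pro and Ent-Pro with ISC, the members' share lay near that of all genes. The counts in those comparisons with ISC rest in part on the choice of probe set. On its dimmest set Txnrd1 lay below ISC in both. On their dimmer sets Gpx4 passed in neither and Selenow did not pass in Ent-Pro. The median difference of the members counted was 0.07 in the first comparison (-0.09 over all genes), 0.61 in the second (-0.11), 0.48 (-0.02), 0.50 (0.02), -0.03 (0.06) and 0.58 (-0.01) in the others, in that order.

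**Figure D4:**
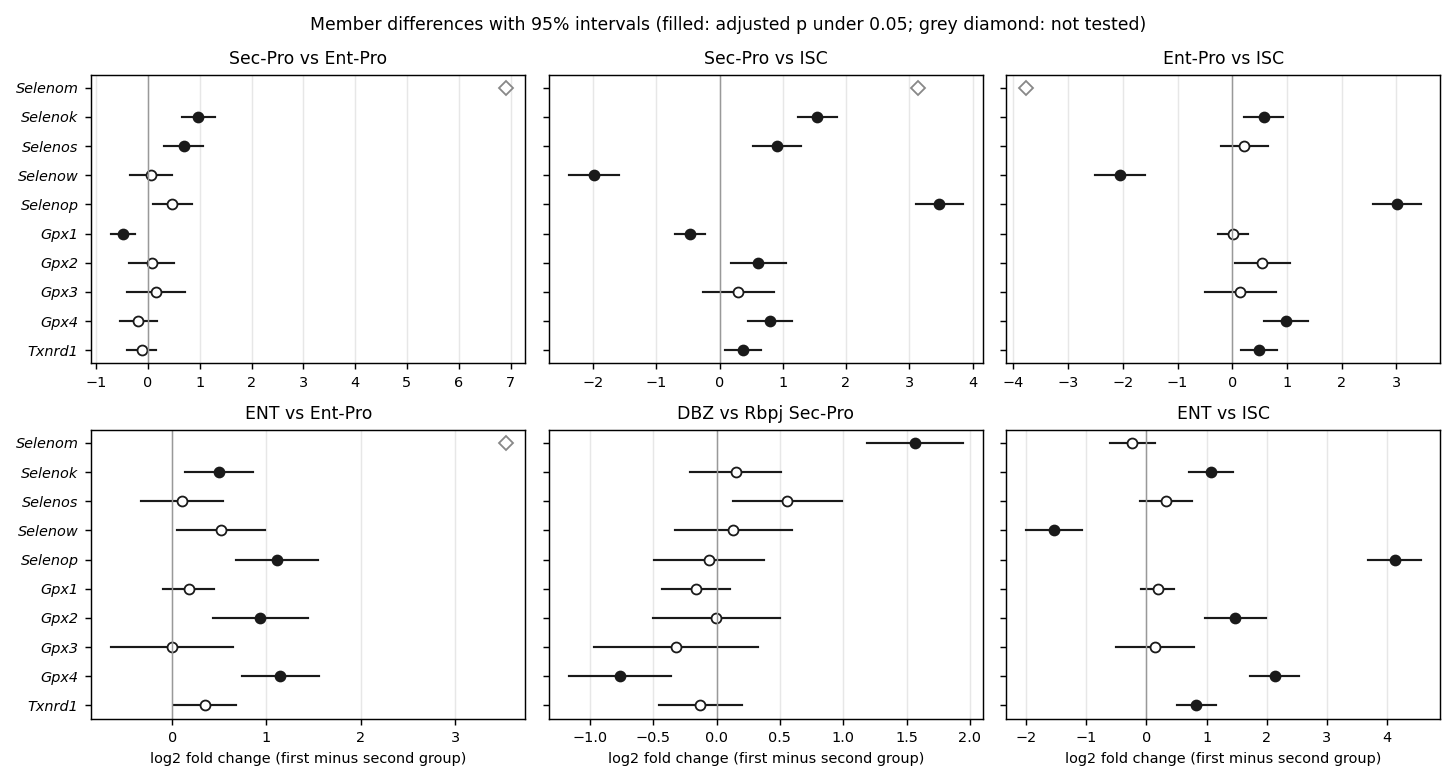
Log2 differences of the 10 members (horizontal axis, first minus second group) in the 6 comparisons, with 95% intervals; filled points passed an adjusted p of 0.05, open points did not, and grey diamonds mark Selenom where it was not tested. The horizontal scale differs between panels. In the comparisons with ISC, Selenop lies at 3.48, 3.01 and 4.12 and Selenow at -1.99, -2.05 and -1.53, and Selenom lies at -3.77 in Ent-Pro and -0.23 in ENT.

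ER folding enzymes and chaperones were often higher, with Selenom, in secretory progenitors. Of 20 measured, 13 rose and none fell in Sec-Pro against Ent-Pro (median 0.58, against -0.09 over all genes), with 5 called without the first Ent-Pro array and 8 with Rbpj Sec-Pro alone. The lists were drawn up with earlier results of these arrays known, so their counts are no independent evidence of a direction. The ER stress sensor gene of secretory epithelium, Ern2, was 3.80 ± 0.23 higher (adjusted p = 1.8e-05). Against ISC, 18 of 20 rose and none fell (median 1.10, against -0.11). DBZ Sec-Pro exceeded Rbpj Sec-Pro for 10 of 20 (median 0.54), though only 4 passed without the first Rbpj array, 2 without the second DBZ array and 1 with these groups fitted alone. Ern2 was 1.50 higher there (0.0097, or 0.074 without the second DBZ array). On the villus the list went the other way from Selenom: in ENT against Ent-Pro 4 rose and 11 fell (median -0.59). The disulfide isomerase gene Pdia5 fell by 1.48 (0.00025), and the ER oxidase gene Ero1b rose by 1.78 (0.00075), although its dimmest probe set gave 0.03 (0.89). Ent-Pro against ISC had 8 higher and 1 lower, and ENT against ISC 6 and 6 (8 called without the second ISC array). Leukocyte markers moved with the secretory calls too, with 7 of 11 higher in Sec-Pro than in Ent-Pro and 8 of 11 than in ISC, and their part was not tested. Goblet markers passed as higher in 6 of 6 in both. Over all genes, 24.0% passed in Sec-Pro against Ent-Pro, 45.2% in Sec-Pro against ISC and 25.5% in Ent-Pro against ISC. The share was 38.7% in ENT against Ent-Pro, 16.4% in DBZ against Rbpj Sec-Pro and 49.2% in ENT against ISC. These shares also apply to the lists below.

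Partners of Selenos and Selenok in ER-associated degradation moved in both directions. Of 15 measured, 4 rose and 1 fell in Sec-Pro against Ent-Pro, with 1 called without the first Ent-Pro array and 3 without the second. Edem1, which directs misfolded glycoproteins to degradation, was 1.62 ± 0.17 higher (adjusted p = 0.00041). Zdhhc6, the partner of Selenok, was 0.55 ± 0.10 lower (0.0065, or 0.076 without the first Ent-Pro array and 0.05 without the second). Sec-Pro against ISC had 5 higher and 1 lower, where 45.2% of all genes passed, and 24.0% did in Sec-Pro against Ent-Pro. The shares of all genes were 25.5% in Ent-Pro against ISC, 38.7% in ENT against Ent-Pro and 49.2% in ENT against ISC. In DBZ against Rbpj Sec-Pro the share was 16.4%. Ent-Pro against ISC had 3 higher and 4 lower, with 2 or 3 called without an Ent-Pro array and 4 without either ISC array. ENT against Ent-Pro had 7 higher and 2 lower, with the Vcp cofactor gene Ubxn6 1.29 higher (0.0002), and 4 were called without the first Ent-Pro array and 5 without the second ENT array. DBZ against Rbpj Sec-Pro had 2 higher and none in 7 of the 10 fits that left out an array, and ENT against ISC had 8 higher and 2 lower.

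Glutathione synthesis and recycling genes were more often called higher than lower in ENT, where Gpx2 and Gpx4 were also high. Of 16 glutathione genes measured, 11 were higher and 1 lower in ENT than in ISC (median 1.05, against -0.01 over all genes), 8 and 1 in ENT than in Ent-Pro (median 0.69), 7 and 0 in Ent-Pro than in ISC, and 8 and 2 in Sec-Pro than in ISC. Shares of all genes called were 49.2%, 38.7%, 25.5% and 45.2% in that order, and 24.0% in Sec-Pro against Ent-Pro. Dpep1, a brush-border dipeptidase that completes glutathione breakdown, was 6.15 ± 0.25 higher in ENT than in ISC (adjusted p = 1.9e-06). Ggct, an enzyme of gamma-glutamyl turnover, was 1.65 ± 0.14 lower (2e-05), but its dimmest probe set gave 0.17 (0.5). Sec-Pro against Ent-Pro had 2 higher and 2 lower, with none called without the second Ent-Pro array and 2 without the first Ent-Pro or first DBZ array. DBZ was below Rbpj Sec-Pro for 4 of 16 and above it for none, as with Gpx4, where 7.08% of all genes passed as lower and 9.34% as higher. Glutathione synthetase, Gss, was 1.60 lower there (0.0064), but without the second DBZ array none was called, Gss included (0.053). The count was 1 without the first Rbpj array, 8 without the second and 0 with these groups fitted alone.

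Of 18 genes of Nrf2, the transcription factor of the antioxidant response, and its targets, 12 were higher and 2 lower in ENT than in ISC (22.3% and 26.8% of all genes), and 7 and 1 in ENT than in Ent-Pro (18.5% and 20.2% of all genes), where the other 10 were not called. Malic enzyme, Me1, was 4.69 ± 0.36 higher in ENT than in Ent-Pro (5.2e-05), and the efflux pump gene Abcc1 was 1.77 ± 0.26 lower (0.00071), with -0.33 (0.5) on its dimmest probe set. Against ISC, Sec-Pro had 7 higher and 3 lower, and Ent-Pro 7 higher and 2 lower (5 called without the first Ent-Pro array and 6 without the second ISC array). Sec-Pro against Ent-Pro had 2 higher and 4 lower, with 3 called without either Ent-Pro array. In DBZ against Rbpj Sec-Pro 7 fell and none rose (median -0.55, against 0.06 over all genes). The quinone reductase gene Nqo1 was 2.47 ± 0.18 lower (0.00059). The count was 3 without the first Rbpj array or the second DBZ array and 1 with these groups fitted alone. Genes such as Gclm, Srxn1 and Fth1 stand in more than 1 of the glutathione, thioredoxin, Nrf2 and ferroptosis lists. Srxn1 is in the thioredoxin and Nrf2 lists. In DBZ against Rbpj Sec-Pro 3 of 7 enterocyte markers also fell, whose part was not tested.

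The remaining selenoproteins moved in both directions. Of 11 measured, 3 rose and 3 fell in Sec-Pro against Ent-Pro, but none was called without the first Ent-Pro array and 2 without the second. In Sec-Pro against ISC 3 rose and 4 fell (4 called without the first ISC array), and in Ent-Pro against ISC 1 rose and 1 fell (1 called without either ISC array or the second Ent-Pro array). In ENT against Ent-Pro 2 rose and 2 fell (2 called without the second Ent-Pro or the first ENT array), and in ENT against ISC 2 rose and 3 fell (3 called without the first ENT or the second ISC array). In DBZ against Rbpj Sec-Pro 2 rose, with none called without either DBZ array and 1 in 6 other such fits. The 2 genes higher in DBZ Sec-Pro, Selenon (4.90 and 4.81 in Rbpj Sec-Pro) and Dio2 (4.95 and 4.82), were dim. These readings lay little above the near-background bounds of the Rbpj arrays (4.62 and 4.68). Selenof, an ER selenoprotein of glycoprotein quality control, was 1.77 ± 0.09 higher in Sec-Pro than in ISC (adjusted p = 7.3e-06), and Txnrd3, another thioredoxin reductase, was 1.57 ± 0.18 lower (0.00016). In ENT against Ent-Pro the deiodinase gene Dio1 was 2.09 ± 0.58 higher (0.019, or 0.13 without the second Ent-Pro array and 0.13 without the first ENT array). Selenoh, a nucleolar selenoprotein, was 1.69 ± 0.17 lower (0.00012). Beside the counts of this list, 24.0% of all genes passed in Sec-Pro against Ent-Pro, 45.2% in Sec-Pro against ISC and 25.5% in Ent-Pro against ISC. The share was 38.7% in ENT against Ent-Pro, 49.2% in ENT against ISC and 16.4% in DBZ against Rbpj Sec-Pro.

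Genes of selenocysteine insertion and selenium supply were called about as often as other genes or less. Of 10 measured, 1 rose and 4 fell in Sec-Pro against ISC (45.2% of all genes called), and 1 rose and 1 fell in Ent-Pro against ISC, in ENT against Ent-Pro (1 called without the first Ent-Pro array) and in ENT against ISC (4 called without either Rbpj array). In Sec-Pro against Ent-Pro 1 fell, where none was called without either Ent-Pro array or the second DBZ array, and 2 without the first DBZ array, the second Rbpj array or either ISC array. In DBZ against Rbpj Sec-Pro none was called by limma, though 1 was without the second Rbpj array. Secisbp2l, related to the protein that binds the selenocysteine stem-loop, was 2.97 ± 0.15 higher in ENT than in ISC (adjusted p = 3e-06), and Eefsec, the elongation factor for selenocysteine, was 1.42 ± 0.14 lower (4.6e-05).

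Smaller groups completed the picture of peroxide and radical handling. Of the 4 glutathione peroxidases with cysteine in place of selenocysteine, Gpx7, an ER peroxidase, was 0.78 ± 0.17 higher in Sec-Pro than in Ent-Pro (adjusted p = 0.013, or 0.079 and 0.098 without the first or second Ent-Pro array) and 0.89 ± 0.19 lower in ENT than in ISC (0.0042). Counts over these 4 genes were small: 1 higher in Sec-Pro against Ent-Pro, in ENT against Ent-Pro and in DBZ against Rbpj Sec-Pro, 1 lower in Ent-Pro against ISC, and 2 higher and 1 lower in ENT against ISC. Each count of 1 was lost without either Ent-Pro array. In ENT against Ent-Pro, DBZ against Rbpj Sec-Pro and Ent-Pro against ISC it was also lost without the first ISC array. The count in ENT against ISC fell in 5 or more of the 10 fits that left out an array. In Sec-Pro against ISC none was called in any of these fits.

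Thioredoxins and peroxiredoxins were mixed. Of 13 measured, 4 rose and 3 fell in ENT against ISC, 3 rose and 2 fell in Sec-Pro against ISC (3 called without either ISC array), 3 rose and 1 fell in Ent-Pro against ISC (2 called without the second Ent-Pro array), and 2 rose and 1 fell in ENT against Ent-Pro (6 called without either Rbpj array). In Sec-Pro against Ent-Pro 1 rose and 2 fell, with none called without either Ent-Pro array, 1 without the second DBZ array and 7 without the second Rbpj array. In DBZ against Rbpj Sec-Pro 2 rose, with none called without the second DBZ array, 4 without the second Rbpj array and 1 in 7 other such fits. Srxn1, which repairs overoxidised peroxiredoxins and is also in the Nrf2 list, was 3.72 ± 0.24 higher in ENT than in ISC (6.7e-06). The thioredoxin-like gene Txnl1 was 1.13 ± 0.16 lower there (0.00035), with -0.12 (0.53) on its dimmest probe set. Of all genes, 49.2% passed in ENT against ISC, 45.2% in Sec-Pro against ISC and 25.5% in Ent-Pro against ISC. The share was 38.7% in ENT against Ent-Pro, 24.0% in Sec-Pro against Ent-Pro and 16.4% in DBZ against Rbpj Sec-Pro.

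Of 5 superoxide dismutase and catalase genes, 2 rose in ENT against Ent-Pro (none called without the second Ent-Pro or second ENT array) and 2 in ENT against ISC (1 called without the second ENT or second ISC array). In Sec-Pro against ISC 1 fell, a call kept in 1 of 10 fits that left out an array, and 2 were called in another. None passed by limma in the other 3 comparisons, although 2 did in Sec-Pro against Ent-Pro and 1 in DBZ against Rbpj Sec-Pro without the second Rbpj array. Ccs, the copper chaperone of superoxide dismutase, was 0.63 ± 0.16 higher in ENT than in Ent-Pro (adjusted p = 0.012, or 0.093 without the second Ent-Pro array and 0.072 without the second ENT array), and Sod2, the mitochondrial dismutase, was 0.65 ± 0.15 higher in ENT than in ISC (0.0048). Of 10 ferroptosis genes, 5 rose and 3 fell in ENT against ISC, 5 rose and 2 fell in Sec-Pro against ISC, and 4 rose and none fell in Ent-Pro against ISC (2 called without the second ISC array). In ENT against Ent-Pro 4 rose and 2 fell, in Sec-Pro against Ent-Pro 2 rose and 2 fell (1 called without the second Ent-Pro array and 2 without the first), and in DBZ against Rbpj Sec-Pro 2 fell (1 called in 9 of the 10 fits that left out an array). Gch1, the first enzyme of tetrahydrobiopterin synthesis, was 2.38 ± 0.54 higher in ENT than in Ent-Pro (0.0074, or 0.057 without the first Ent-Pro array and 0.053 without the first ENT array). The transferrin receptor gene Tfrc was 2.36 ± 0.36 lower (0.00098), with -0.21 (0.83) on its dimmest probe set. For both lists, the shares of all genes called were 49.2% in ENT against ISC, 45.2% in Sec-Pro against ISC and 25.5% in Ent-Pro against ISC. They were 38.7% in ENT against Ent-Pro, 24.0% in Sec-Pro against Ent-Pro and 16.4% in DBZ against Rbpj Sec-Pro.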

How the data were processed

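Affymetrix mouse 430A 2.0 arrays were hybridised with total RNA of 10 samples, in 5 groups of 2 taken from the labels. The submitters' processing notes name MAS5 and RMA, without the part each played or a version. The deposited table holds log2 expression of 22690 probe sets. Array medians were 6.83 to 6.98, replicates correlated at 0.982 to 0.995, and no further scaling was applied. With 2 arrays a group, the number of arrays sets the precision.

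The platform annotation gave 20393 probe sets 1 gene symbol, 691 several and 1606 none. Symbols were checked by Entrez identifier against RefSeq, of which 20364 matched. Each gene took its probe set with the highest mean over the 10 arrays. Log2 values of 12393 genes were fitted with limma 3.58.1 in R 4.3.3, with 1 mean for each of the 5 groups and 1 variance over all of them (5 residual degrees of freedom), and p-values were adjusted by Benjamini-Hochberg over all genes. A gene passed at an adjusted p under 0.05. Sec-Pro is the mean of the Rbpj and DBZ group means. A member would have been given as a bound if within 1 log2 unit of the background control on all arrays of a group, and none was. This bound was not applied to the genes of the lists. The fit was tested on simulated data.

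The members, gene lists and markers were chosen with earlier results of these data known. From each list and comparison, at most 2 passing genes in each direction, those with the largest changes, could be named, and a part of these was named here after their values were seen; for 6 members the 3 genes with the smallest root mean square difference of centred values were named. Alternatives were the mean or dimmest probe set, other scalings (median centring, cyclic loess, quantile), a filter on dim genes, limma-trend, the compared groups fitted alone, each Sec-Pro arm alone, the 4 Sec-Pro arrays as 1 group, a replicate block and each array left out. Their use on the gene lists was chosen after seeing the data. Upstream sequences came from RefSeq's promoter table (GRCm38.p6), and no protein sequence was used here.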

Additional observations from a re-analysis of the deposited data

Results flagged for a closer look

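In 2 members the arms of the secretory group differed by a test of the difference itself. Selenom was 1.57 higher (log2) in DBZ Sec-Pro than in Rbpj Sec-Pro, with no overlap between the arrays. Gpx4 went the other way, at -0.76 for DBZ minus Rbpj Sec-Pro, also with no overlap. No group had enough arrays for a test of single outlying arrays.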

How the results depend on the processing

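Of 1194 recomputed member values over 22 settings, 1091 kept their direction and their side of the threshold, 49 lost a call, 16 gained one, 34 changed sign and 4 described values moved by more than the spread. Of 28 called member results, 13 lost the call with their direction kept in at least 1 setting. The cause of these changes was not tested. Signs changed for called results in Txnrd1 against ISC, in Sec-Pro (-0.62 with the mean of the probe sets, -0.99 with the dimmest) and Ent-Pro (-0.54 and -0.85), and in Selenow in ENT against ISC (0.23 with the dimmest).

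Signs also changed for uncalled results. In Sec-Pro against Ent-Pro, Selenow gave -0.17 with the mean of its probe sets, -0.40 with the dimmest, -0.01 after centring and -0.0035 with Rbpj Sec-Pro alone. Gpx2 gave -0.01 after centring, Gpx4 0.20 with Rbpj Sec-Pro alone and Gpx3 -0.01 with DBZ Sec-Pro alone. Txnrd1 in DBZ against Rbpj Sec-Pro gave 0.15 with the mean and 0.52 with the dimmest, and Gpx1 in Ent-Pro against ISC gave -0.17 after loess and -0.09 after quantile normalization. Ggct in ENT against ISC gave 0.17 on its dimmest probe set.

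With 1 array left out, so that the lone array of its group was assumed to vary like the others, these uncalled differences spanned 0. In Sec-Pro against Ent-Pro, Selenow ran from -0.18 to 0.31, Gpx2 from -0.12 to 0.26 and Gpx3 from -0.06 to 0.37. Gpx3 ran from -0.03 to 0.62 in Sec-Pro against ISC, from -0.19 to 0.47 in Ent-Pro and in ENT against ISC, and from -0.06 to 0.06 in ENT against Ent-Pro. Gpx1 in Ent-Pro against ISC ran from -0.08 to 0.10, and Selenos in ENT against Ent-Pro from -0.10 to 0.31. In DBZ against Rbpj Sec-Pro, Selenow ran from -0.12 to 0.38, Selenop from -0.22 to 0.10, Gpx2 from -0.38 to 0.37 and Gpx3 from -0.75 to 0.11.

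The number of members called ran, with 1 array left out, from 1 to 3 in Sec-Pro against Ent-Pro, 5 to 8 in Sec-Pro against ISC, 3 to 6 in Ent-Pro against ISC, 3 to 4 in ENT against Ent-Pro, 1 to 3 in DBZ against Rbpj Sec-Pro and 6 throughout in ENT against ISC. It was 5 in Sec-Pro against ISC with DBZ Sec-Pro alone, 3 in Ent-Pro against ISC with the dimmest probe set, 7 in ENT against Ent-Pro after cyclic loess and 1 in DBZ against Rbpj Sec-Pro with these groups fitted alone. With the replicate number as a block it was 3, 7, 4, 4, 2 and 6 in that order, and Txnrd1 lost its calls against ISC (adjusted p = 0.057 in Sec-Pro and 0.056 in Ent-Pro). Deviations of same-numbered arrays from their group means correlated at -0.19 to 0.17 between groups. With 2 arrays a group, this cannot show whether same-numbered samples share a batch, and the labels give only the number.

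Over all genes, calls in Sec-Pro against Ent-Pro fell from 2975 to 1530 with the Sec-Pro arrays as 1 group and to 911 and 903 without the first or second Ent-Pro array. In Ent-Pro against ISC they fell from 3165 to 1817 without the second ISC array and to 1816 and 1704 without the Ent-Pro arrays. In DBZ against Rbpj Sec-Pro they fell from 2036 to 1167 among genes above the median level, 97 with these groups fitted alone, 1018 without the first Rbpj array, and 1273 and 363 without the first or second DBZ array. The share of calls that were higher in Sec-Pro than in Ent-Pro was 38.6%, or 27.2% after centring (986 and 2643 lower) and 53.8% after loess (1425 and 1225 lower). Against ISC it was 39.8%, or 49.9% after loess (2661 and 2674 lower), which moved the median gene by 0.11.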
